A study of Mus musculus with 12 samples.

Results

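Interferon-stimulated genes are the genes that cells switch on when an interferon binds its receptor. In the 2 cell types of this dataset, 42 of them were followed, chosen by symbol from the antiviral and signalling genes named in this class, out of 52636 genes in each count table. All 42 were found in both tables. The cells came from the bone marrow of C57BL/6 J mice aged 8 to 12 weeks. Neutrophils were isolated by negative selection and used directly, whereas monocytes first spent 3 days in medium with M-CSF at 10 ng/ml, which drives them towards macrophages, and are called macrophages below. Each cell type was then exposed for 4 h to 1 nM CGRP, a neuropeptide released by pain-sensing neurons, or to PBS (saline). There were 3 libraries in each of the 4 groups (neutrophils with PBS, neutrophils with CGRP, macrophages with PBS, macrophages with CGRP) and 12 libraries in all. The labels name no interferon, virus or bacterial product in any group. The labels do not say whether the libraries of a group came from separate mice, and p-values therefore measure the spread between libraries.

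Type I interferons bind the receptor IFNAR1–IFNAR2, which activates the kinases JAK1 and TYK2. These phosphorylate transcription factors, which join IRF9 and bind a DNA element called the interferon-stimulated response element, upstream of genes whose products detect viral nucleic acids, degrade RNA, block translation or tag proteins with ISG15. Many of these genes are expressed at a low tonic level without any infection. Type II interferon uses a separate receptor, IFNGR1–IFNGR2. The members were ordered by role, starting with cytosolic sensors of RNA and DNA (6 genes), OAS-family proteins and the kinase PKR (6) and IFIT proteins (3). The remaining roles were other antiviral effectors (11), the ISG15 system (3), transcription factors and regulators (8), interferon-inducible GTPases (3) and secreted products (2).

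Libraries held 2002559 to 3631989 counts each. A count of 3, taken as the detection floor, corresponded to between 0.857 and 1.5 CPM, the count expressed relative to the library total. All levels below are CPM scaled by TMM over the 12 libraries. The libraries were primed at the poly-A tail, and levels are compared between samples and not between genes. Within a group the lowest correlation between libraries was 0.969, and the highest between cell types was 0.722. The 10 neutrophil markers summed to between 155400 and 233400 CPM in neutrophils and to between 299.6 and 440.6 CPM in macrophages. The 11 monocyte and macrophage markers summed to between 11040 and 13320 CPM in macrophages and to between 2742 and 4069 CPM in neutrophils, and *C1qb*, the most abundant of them in macrophages, had a mean of 4236 CPM in macrophages and 86.8 CPM in neutrophils with PBS. With PBS, 9 of the 11 were called higher in macrophages. *Ly6c2* went the other way, with means of 2694 CPM in neutrophils and 31.1 CPM in macrophages, and made up most of the neutrophil sum, and *Ccr2* was not called (316 and 283 CPM). Both labelled cell types thus held their defining markers. The neutrophil libraries also held erythroid markers (5747 to 7346 CPM in sum), B cell markers (104 to 125 CPM) and T or NK cell markers (82.4 to 128 CPM). The corresponding sums in macrophages were at most 26.8, 40.5 and 1.56 CPM.

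The interferon genes themselves were almost silent. Of 16 type I, II and III interferon genes listed, 14 had no count in any of the 12 libraries. *Ifnb1*, which encodes interferon-β, had 1 count in each of 3 neutrophil libraries, and *Ifng*, which encodes interferon-γ, had 1 count in 1 neutrophil library. None had enough counts to be tested. A count of 0 here allows a level of up to the floor of 0.857 to 1.5 CPM, and covers counting error only.

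Together the 42 members summed to 1027, 1103 and 982 CPM in the 3 neutrophil libraries with PBS and to 962, 948 and 900 CPM with CGRP. In macrophages they summed to 1679, 1597 and 1337 CPM with PBS and to 1465, 1458 and 1225 CPM with CGRP. On this scale the sums with CGRP lay below those with PBS in neutrophils without overlap and overlapped in macrophages. As shares of the library total without TMM, the members took 0.0989%, 0.0994% and 0.1006% of counts with PBS and 0.0909%, 0.09925% and 0.0938% with CGRP in neutrophils, and 0.174%, 0.154% and 0.1473% with PBS and 0.1441%, 0.1472% and 0.1221% with CGRP in macrophages. On that scale the neutrophil groups overlapped and the macrophage groups did not, the closest pair being 0.1473% and 0.1472%. On both scales every macrophage library was above every neutrophil library. Such sums are weighted towards the most abundant members. With PBS, *Ifi27l2a* had means of 251 CPM in macrophages and 117 CPM in neutrophils, *Lgals3bp* of 225 and 12.5 CPM, and *Bst2* of 169 and 35.7 CPM. No sum was taken without these genes. Of 38 members tested with PBS, 27 were lower in neutrophils and 11 higher. In bulk samples, fewer cells that express a gene and less RNA per cell cannot be told apart.

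The first comparison asks which members differed between CGRP and PBS in neutrophils. *Cmpk2*, which encodes a mitochondrial nucleotide kinase induced by interferon, fell, and was the 1 member called among the 37 with enough counts to test. Its level was 51.9, 58.3 and 45.2 CPM with PBS and 27.5, 26.3 and 22.7 CPM with CGRP, so that every CGRP library was below every PBS library. The log2 fold change was −0.99 ± 0.15 (SE, n = 3 libraries per group, 95% interval −1.31 to −0.68, limma-voom adjusted p = 3.70e-04), a 1.99-fold decrease. Of all 9819 genes tested in neutrophils, 2.53% were called, 1.51% higher and 1.02% lower, so that 59.7% of the calls were higher (70.1% when library totals were used without TMM). The counts behind these levels were between 52 and 191 per library. *Cmpk2* was called in each of 10 alternative analyses (adjusted p from 2.17e-05 to 0.00286) and when any 1 of the 6 libraries was left out.

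Markers of other cells, and of neutrophils, were also compared between these neutrophil libraries. The 6 T or NK cell markers summed to 114, 124 and 128 CPM with PBS and to 108, 82.4 and 103 CPM with CGRP, groups that did not overlap, and *Nkg7*, the most abundant of them, was at −0.32 on the log2 scale (adjusted p = 0.198). Of the 11 monocyte and macrophage markers, 10 were tested and 7 were below 0. *Ccr2*, the chemokine receptor of inflammatory monocytes, was the 1 called, and fell from 326, 306 and 315 CPM to 241, 217 and 208 CPM (−0.49, adjusted p = 0.0013). The study names *Ccr2* as an example of migration genes lowered by CGRP, in a statement on both cell types. In macrophages *Ccr2* fell as well (−0.81, adjusted p = 4.80e-04). *Adgre1*, which encodes F4/80, had 44.1, 44.6 and 34.4 CPM with PBS and 27.2, 29.8 and 28.8 CPM with CGRP (−0.50, adjusted p = 0.0934). The list as a whole summed to 3703, 4069 and 3268 CPM with PBS and to 3649, 2983 and 2742 CPM with CGRP, which overlapped. Its median log2 fold change was −0.08. Of the 10 neutrophil markers, all tested, 7 were also below 0, with a median of −0.13 and none called. *Ly6g*, 1 of these 10, had means of 862 CPM with PBS and 635 CPM with CGRP (−0.42, adjusted p = 0.0663). The part of other cells in the neutrophil results was not tested.

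*Rsad2*, which encodes viperin, an enzyme that makes a chain-terminating nucleotide from a product of CMPK2, lies next to *Cmpk2* on chromosome 12 (GRCm38). *Rsad2* is at chr12:26442746-26456452 on the minus strand and *Cmpk2* at chr12:26469204-26479837 on the plus strand, so that they point away from each other across 12751 bases. *Rsad2* had 54.8, 48.3 and 48.4 CPM with PBS and 51.1, 47.9 and 33.2 CPM with CGRP. Both groups overlapped for it, with a log2 fold change of −0.17 (95% interval −0.48 to 0.14, adjusted p = 0.699). In macrophages the levels of both genes were lower and no difference was detectable, with log2 fold changes of −0.21 (−1.12 to 0.70) for *Cmpk2* and −0.36 (−1.14 to 0.41) for *Rsad2*.

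The members nearest to the threshold after *Cmpk2* in neutrophils were *Dtx3l*, *Usp18* and *Ifi203*, none of which passed the test. *Dtx3l*, a ubiquitin ligase that acts with PARP9, had 26.1, 30.9 and 26.9 CPM with PBS and 18.4, 17.2 and 24.4 CPM with CGRP (log2 fold change −0.51, adjusted p = 0.167). *Parp9* itself overlaps *Dtx3l* on the opposite strand, with a value of −0.48 (adjusted p = 0.437). *Usp18*, the protease that removes ISG15 from proteins and dampens type I receptor signalling, had 1.26, 2.44 and 1.79 CPM with PBS and 3.24, 4.09 and 6.55 CPM with CGRP (log2 fold change 1.21, adjusted p = 0.209). *Ifi203*, of the HIN-200 family, had 12.6, 7.03 and 10.0 CPM with PBS and 4.86, 6.42 and 4.36 CPM with CGRP (log2 fold change −0.83, adjusted p = 0.227). The groups of these 3 genes did not overlap, as was the case for 17.8% of all genes tested in neutrophils.

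Of the 37 members tested in neutrophils, 23 had a log2 fold change below 0 (62.2%, against 49.8% of all genes tested), and their median was −0.11 against 8.01e-04 for all genes. With library totals without TMM, 21 of the 37 were below 0 and the median was −0.06. At an unadjusted p under 0.05, 7 members were lower and 2 higher, when 6.5% and 6.3% of all genes were (12.8% in either direction). This count of 9 was 3 without PBS replicate 1 or after thinning, and 5 without CGRP replicate 2 or 3 or in DESeq2. The groups did not overlap for 6 members that were lower with CGRP and for 4 that were higher, out of 37, against 9.65% and 8.13% of all genes. All 6 sensors had values below 0 (5 with library totals without TMM), with *Ddx58* (RIG-I) at −0.42, *Ifih1* (MDA5) at −0.67 and *Dhx58* (LGP2) at −0.37, and none of them passed the test. The lowest adjusted p among the 3 was 0.302. All 5 OAS-family and PKR genes tested had values above 0, from 0.05 to 0.13, and none was called. *Isg15*, the ubiquitin-like modifier of the response, had 17.3, 18.9 and 18.3 CPM with PBS and 18.8, 21 and 14 CPM with CGRP (log2 fold change 0.01, 95% interval −0.40 to 0.42). Its groups overlapped throughout. *Cxcl10*, a chemokine that attracts T cells, had 5.35, 3.97 and 5.38 CPM with PBS and 2.59, 3.21 and 2.18 CPM with CGRP (log2 fold change −0.79, 95% interval −1.58 to 0.01, adjusted p = 0.392).

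**Figure D1:**
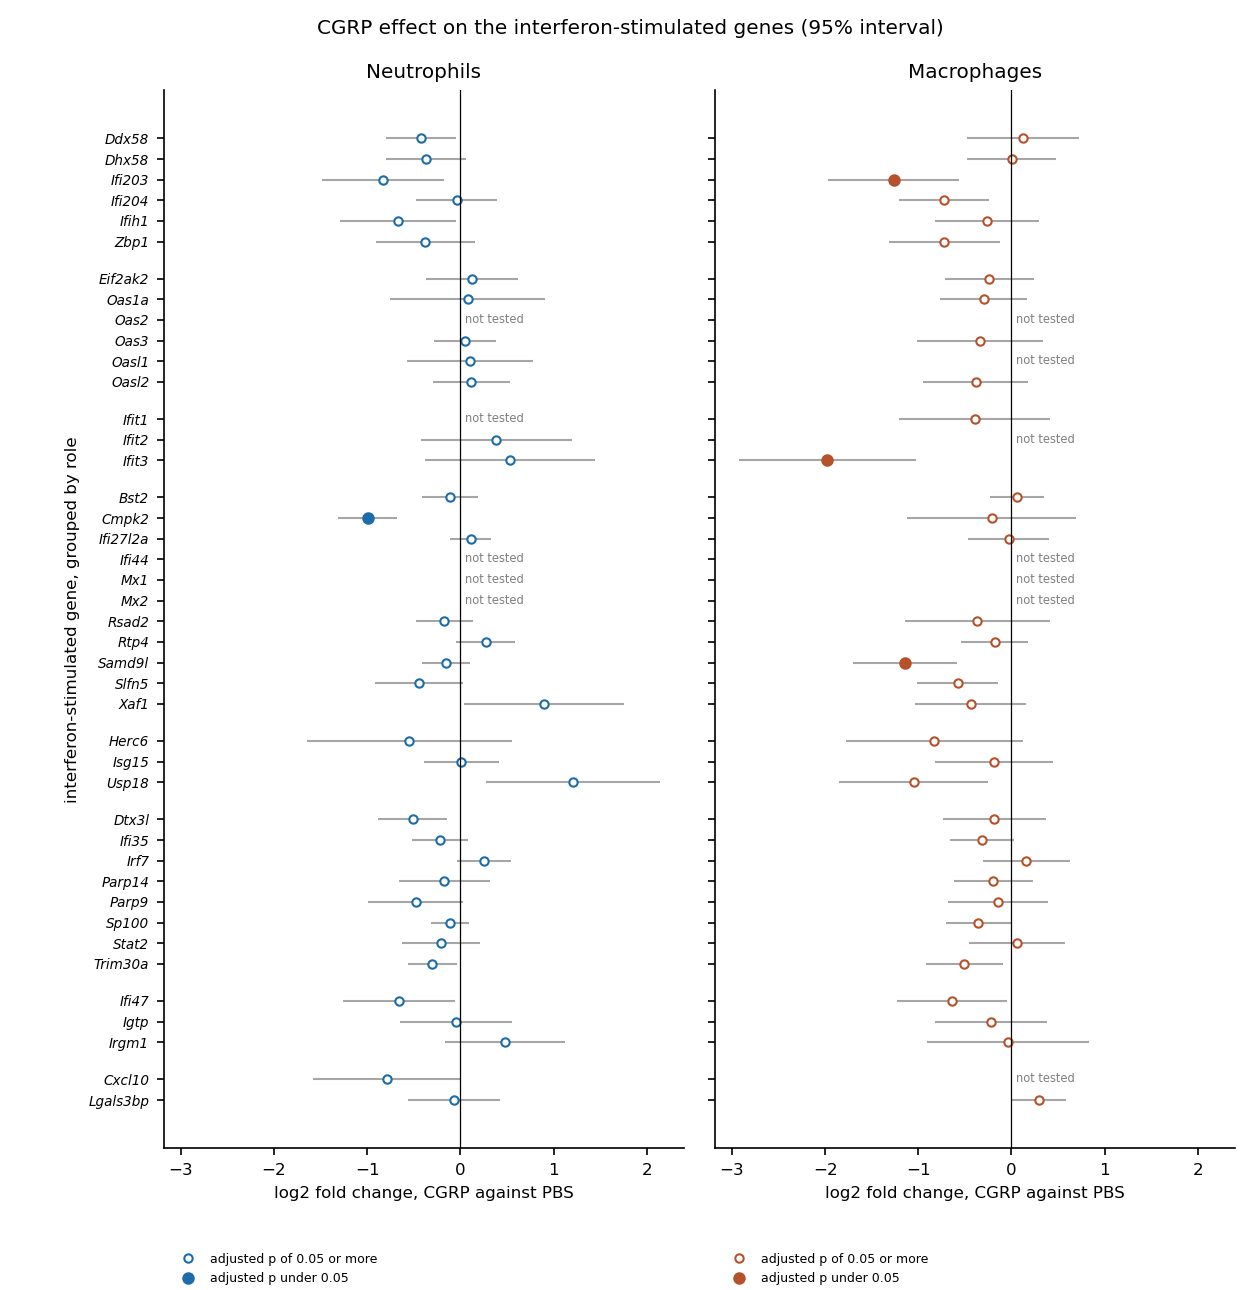
Log2 fold change of CGRP against PBS (x axis) for each of the 42 members (y axis, grouped by role) in neutrophils (left, blue) and macrophages (right, orange), 3 libraries per group. Points are limma-voom estimates, lines are 95% intervals and filled points have an adjusted p under 0.05: *Cmpk2* in neutrophils, and *Ifit3*, *Samd9l* and *Ifi203* in macrophages, all below 0. Members with too few counts have no point and are marked as not tested, which leaves 37 in neutrophils and 35 in macrophages.

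The same question was asked of macrophages, where 35 members had enough counts to test and 3 were called, all lower with CGRP. *Ifit3*, whose product binds the viral RNA sensor IFIT1, had 7.71, 6.27 and 6.44 CPM with PBS and 2.18, 1.10 and 1.5 CPM with CGRP. The log2 fold change was −1.98 ± 0.45 (SE, n = 3, 95% interval −2.93 to −1.03, adjusted p = 0.0117), a 3.94-fold decrease, on counts of 18 to 27 with PBS and 3 to 7 with CGRP. *Samd9l*, an interferon-induced restriction factor of poxviruses, had 20.3, 20.6 and 20.8 CPM with PBS and 9.98, 11.4 and 6.01 CPM with CGRP. Its log2 fold change was −1.14 ± 0.26 (95% interval −1.70 to −0.59, adjusted p = 0.0124), a 2.21-fold decrease. *Ifi203* had 14.0, 13.7 and 10.0 CPM with PBS and 6.86, 4.78 and 3.51 CPM with CGRP, with a log2 fold change of −1.27 ± 0.33 (95% interval −1.97 to −0.56, adjusted p = 0.0279). The groups of all 3 genes were apart, with CGRP lower, when this held for 12.5% of all genes tested in macrophages. Of the 9393 genes tested in macrophages, 7.43% were called, 3.46% higher and 3.97% lower.

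The calls of *Ifit3* and *Ifi203* in macrophages depended on single libraries more than that of *Samd9l*. Without CGRP replicate 3, the library with the lowest total count, none of the members was called, with log2 fold changes of −1.97 for *Ifit3* (adjusted p = 0.0587), −0.93 for *Samd9l* (0.0608) and −1.08 for *Ifi203* (0.110) in limma-voom, and 5 members had an unadjusted p under 0.05. *Samd9l* was called without any other library, and in all 10 alternatives. *Ifit3* was also not called without PBS replicate 1 (adjusted p = 0.0622) or CGRP replicate 2 (0.111), and *Ifi203* without PBS replicate 1 (0.121), PBS replicate 2 (0.0665) or CGRP replicate 2 (0.142). Over the analyses without 1 library the log2 fold change stayed between −2.24 and −1.74 for *Ifit3*, between −1.30 and −0.93 for *Samd9l* and between −1.53 and −1.08 for *Ifi203*. *Ifit3* and *Ifi203* were called in all 9 alternatives in which they could be tested, and all 3 genes were below 0 in every analysis.

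Reads of *Ifit3* may be shared with a related gene nearby. It shares 24.0% of the 31-base words in its last 500 bases with *Ifit3b*, which had 3.43, 0.895 and 1.07 CPM with PBS and 0.936, 0 and 0 CPM with CGRP in macrophages. *Ifi203* shares 0.0% of its terminal words with other genes. Its locus overlaps that of *Mndal*, a further HIN-200 gene that shares 34.3% of such words with *Ifi205* and *Ifi211*, on the same strand, and *Mndal* also fell in macrophages, from 30.0, 38.2 and 36.9 CPM to 20.6, 18.8 and 19.5 CPM (log2 fold change −0.81, adjusted p = 0.0178). Without CGRP replicate 3, or with counts thinned to the smallest library (adjusted p = 0.0710), or without PBS replicate 2 or CGRP replicate 2 (up to 0.103), *Mndal* was not called.

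**Figure D2:**
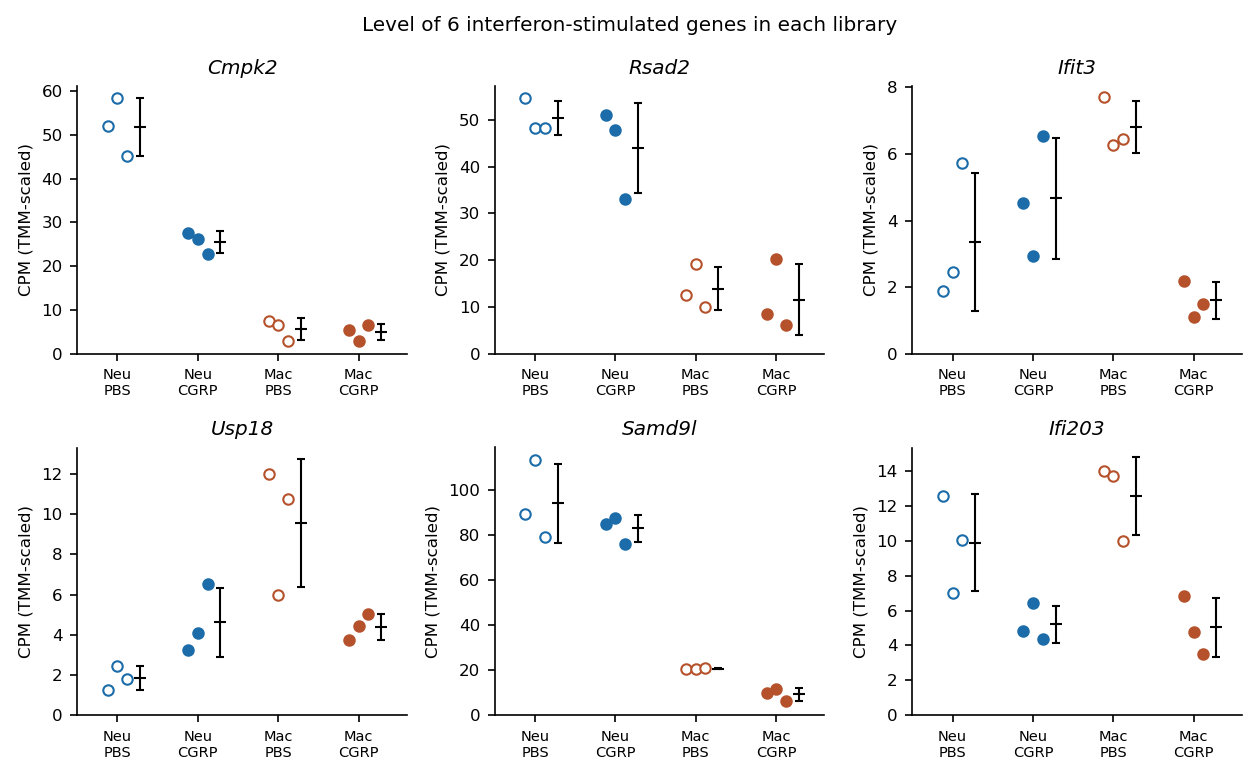
Level of 6 members in each of the 12 libraries, in TMM-scaled CPM on a linear y axis that starts at 0. Circles are libraries (open PBS, filled CGRP, blue neutrophils, orange macrophages), and the bars beside them are the mean ± SD of 3 libraries. The *Cmpk2* libraries with CGRP lie between 22.7 and 27.5 CPM in neutrophils, below all PBS libraries, while those of *Ifit3*, *Samd9l* and *Ifi203* lie below the PBS libraries in macrophages.

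Several members in macrophages lay close to the threshold without passing it. *Ifi204*, the HIN-200 protein p204, had 46.8, 40.6 and 29.0 CPM with PBS and 26.2, 25.7 and 17 CPM with CGRP (log2 fold change −0.72, adjusted p = 0.0689). It shares 18.5% of its terminal words with other genes, *Ifi203* among them. *Slfn5*, of the schlafen family, had 130, 112 and 90.6 CPM with PBS and 87.0, 88.3 and 48.6 CPM with CGRP (log2 fold change −0.58, adjusted p = 0.110). *Usp18* had 12, 5.97 and 10.7 CPM with PBS and 3.74, 4.41 and 5.01 CPM with CGRP (log2 fold change −1.05, adjusted p = 0.115). The groups were apart for each of these 3 genes, with the CGRP libraries lower, as for 12.5% of all genes tested in macrophages.

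Of the 35 members tested in macrophages, 29 had a log2 fold change below 0 (82.9%, against 49.3% of all genes tested). Their median was −0.30 against 0.00465 for all genes, and −0.18 without PBS replicate 1. The groups did not overlap for 11 members lower with CGRP and for none higher, against 12.5% and 11.6% of all genes (24.1% in either direction). At an unadjusted p under 0.05, 10 members were lower and 1 higher, when 10% and 9.77% of all genes were (19.8% in either direction), and this count of 11 was 5 without PBS replicate 1 or CGRP replicate 3. Members share regulators, so that their directions are not independent, and no test was made of the list. The members were also chosen with earlier results of these data known. Among 90 further interferon-stimulated genes, described below, 34 of the 59 tested in macrophages were below 0 (57.6%), with a median of −0.05. By role, 4 of 6 sensors (5 under both other scalings, where *Dhx58* crossed 0), all 4 OAS-family and PKR genes tested, both IFIT genes tested, all 3 genes of the ISG15 system and all 3 GTPases were below 0. *Isg15* had 27.4, 26.6 and 13.6 CPM with PBS and 25.3, 20.6 and 12 CPM with CGRP, an overlap with a log2 fold change of −0.18 (95% interval −0.82 to 0.45). *Irf7*, which encodes the transcription factor that amplifies interferon production and lies across *Phrf1* on the opposite strand (1094 and 1135 counts over all libraries), had a log2 fold change of 0.16 (−0.31 to 0.63), and *Stat2* of 0.06 (−0.46 to 0.58). *Lgals3bp*, a secreted glycoprotein, was at 222, 222 and 230 CPM with PBS and 229, 306 and 298 CPM with CGRP (log2 fold change 0.29, adjusted p = 0.244).

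Summed marker lists, of macrophages as well as of other cells, also differed between the macrophage libraries. Of all the markers listed, *Tcf4* and *Ccr2* alone were called. The neutrophil list summed to 332, 392 and 299.6 CPM with PBS and to 441, 417 and 413 CPM with CGRP, with *S100a8* the most abundant of its genes. Of its 10 genes, 8 were tested, all above 0 and none called. The list of 9 plasmacytoid dendritic cell markers, a cell type known for producing type I interferon, summed to 87.1, 69.8 and 90.6 CPM with PBS and to 122, 126.5 and 134 CPM with CGRP. Of these, 3 were tested, and the most abundant, *Tcf4*, was the 1 called (log2 fold change 0.73, adjusted p = 0.0047). *Siglech*, a defining marker of that cell type, had a mean of 1.18 CPM with PBS and 1.83 CPM with CGRP in macrophages, about the level of the floor, and *Pacsin1* was at 0 in all of them. Other genes of the list had lower means with CGRP, with 3.01 and 2.03 CPM for *Ly6d*, 1.23 and 0.646 CPM for *Spib* and 5.24 and 4.98 CPM for *Cox6a2*, a tested gene (log2 fold change −0.05), while *Runx2*, the other tested gene, had means of 4.97 and 8.46 CPM (0.79, adjusted p = 0.305). The higher sum was mostly that of *Tcf4*. In neutrophils the plasmacytoid list summed to 179, 169.5 and 186 CPM with PBS and to 174, 194 and 190 CPM with CGRP. The macrophage libraries with CGRP also had higher sums, without overlap, for 5 conventional dendritic cell markers (2.29, 4.77 and 2.86 CPM with PBS, and 5.30, 6.99 and 6.51 CPM with CGRP), with *Cd209a* the most abundant and the 1 tested (log2 fold change 1.21, adjusted p = 0.125) and *Xcr1* at 0. The same held for the 6 B cell markers (32.3, 33.4 and 31.1 CPM, and 37.4, 40.5 and 38.6 CPM), almost all of it *Cd79b*, with 4 of the 6 at 0, and for the monocyte and macrophage markers (11040, 11300 and 11540 CPM, and 11570, 12740 and 13320 CPM). Of those 11, 10 were above 0 and *Ccr2* fell (−0.81, adjusted p = 4.80e-04). The part of such cells or cell states in the macrophage results was not tested.

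The sequence upstream of the start of each gene was searched on both strands for the letters GAAA, any 2 bases and GAAA again, the core of the interferon-stimulated response element. In RefSeq (GRCm38.p6), 31 members were matched, and 14 of them (45.2%) held it in the 250 bases before a start, against 936 of 27025 genes (3.46%). The letters TTC, any 3 bases and GAA, the core of the gamma-activated site, searched in the same way, were held by 5 of the 31 (16.1%) and by 8.13% of all genes. Of the 3 members called in macrophages, *Ifit3* held the response element core at 2 places, *Ifi203* held it at 1 of its 2 starts, and *Samd9l* did not hold it. *Cmpk2*, called in neutrophils, did not hold it either. Among the members tested in macrophages and matched, 11 of 22 below 0 and 2 of 5 above 0 held it. A match is a description of the sequence only. Stretches of 100 bases are given for the 2 called genes with a match, and for *Rsad2* and *Isg15*, which were added after their values were seen because neither was called in any CGRP comparison. Matches are in capitals, each stretch is written on the strand of its gene, and it lies wholly before the start named. *Ifit3* is chr19:34583353-34583452 (plus strand), with matches that begin 156 and 122 bases before the start. *Ifi203* is chr1:173942493-173942592 (minus strand), with the match 35 bases before the start at 173942492. That is the second *Ifi203* start in RefSeq, and the annotated start of *Mndal* on the same strand is the next base (173942491), so that the match lies before both of these starts but inside the *Ifi203* locus, downstream of its first start (173942672). *Rsad2* is chr12:26456493-26456592 (minus strand), with the match 120 bases before. *Isg15* is chr4:156200819-156200918 (minus strand), where 3 overlapping matches begin between 78 and 66 bases before the start.
Ifit3: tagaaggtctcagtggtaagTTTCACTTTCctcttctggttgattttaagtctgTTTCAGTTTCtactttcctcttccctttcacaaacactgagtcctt
Ifi203: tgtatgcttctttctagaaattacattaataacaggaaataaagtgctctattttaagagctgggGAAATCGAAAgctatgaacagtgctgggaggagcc
Rsad2: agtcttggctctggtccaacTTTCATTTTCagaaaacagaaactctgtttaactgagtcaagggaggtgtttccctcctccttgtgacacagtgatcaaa
Isg15: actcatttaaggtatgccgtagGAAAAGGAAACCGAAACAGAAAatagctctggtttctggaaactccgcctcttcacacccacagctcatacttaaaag

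An interaction term over the 12 libraries asked whether CGRP acted differently in neutrophils and macrophages. *Ifit3* and *Usp18* were called, both lower in macrophages, among 39 members tested, when 2.36% of the 10694 genes tested were called, 1.21% higher and 1.15% lower. The higher calls were 51.2% of all calls, and 36.4% with library totals without TMM. At an unadjusted p under 0.05 there were 5 members (8 without macrophage PBS replicate 1), against 13.2% of all genes, and 28 of the 39 had a difference below 0, against 47.9%. Without macrophage CGRP replicate 3, 22 of the 39 were below 0, and the median of the members moved from −0.19 to −0.04. After thinning, 22 of 37 were below 0. *Ifit3* had 1.89, 2.44 and 5.74 CPM in neutrophils with PBS and 4.53, 2.92 and 6.55 CPM with CGRP, with groups that overlapped, whereas in macrophages all CGRP libraries were lower. The difference (macrophage effect minus neutrophil effect) was −2.49 ± 0.64 on the log2 scale (SE, 95% interval −3.82 to −1.16, adjusted p = 0.0381). For *Usp18*, which was higher in every CGRP library than in any PBS library of neutrophils and lower in macrophages, the difference was −2.25 ± 0.60 (95% interval −3.50 to −1.01, adjusted p = 0.0478). *Usp18* was not called within either cell type. Both calls were fragile. *Ifit3* kept its call in 4 of 12 analyses that left out 1 library (neutrophil PBS replicate 3 or CGRP replicate 2, macrophage PBS replicate 3 or CGRP replicate 1), with adjusted p from 0.0208 to 0.130. *Usp18* kept it in 1 of 12, without macrophage PBS replicate 2 (0.0121 to 0.155). Neither was called without the filter on low counts or after thinning, and *Usp18* was not called with library totals (adjusted p = 0.0587), a scaling that moved the median of all genes from 0.02 to −0.10. The counts of *Usp18* ranged from 4 to 15 per neutrophil library and from 10 to 42 per macrophage library.

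The next members by interaction were *Samd9l* (difference −0.98, adjusted p = 0.0973), *Xaf1*, an antagonist of the apoptosis inhibitor XIAP (−1.33, adjusted p = 0.201), and *Oasl1*, an OAS-like protein (−1.79, adjusted p = 0.283). *Samd9l* had 89.4, 113 and 78.9 CPM with PBS and 84.8, 87.6 and 75.9 CPM with CGRP in neutrophils, which overlapped. *Xaf1* had 2.52, 3.67 and 1.43 CPM with PBS and 4.53, 5.26 and 3.93 CPM with CGRP in neutrophils, and 14.0, 10.4 and 9.66 CPM against 9.36, 7.36 and 8.01 CPM in macrophages. Its groups were apart in both cell types, in opposite directions, and it passed none of these tests. For *Cmpk2* the difference was 0.79 (95% interval −0.13 to 1.70, adjusted p = 0.492), so that its fall in neutrophils was not shown to differ from its value in macrophages.

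The PBS groups show how far the members differed between the cell types without CGRP. Cell type, medium and days in culture cannot be told apart in this comparison. Of 38 members tested, 25 were called, 9 higher in neutrophils and 16 lower, when 68.5% of the 10186 genes tested were called (35.5% higher and 33% lower). The median log2 difference (neutrophils minus macrophages) was −0.45 for the members and 0.03 for all genes. There were 27 members below 0, or 71.1%, against 49% of all genes. The groups were apart for 9 members higher in neutrophils and 17 lower, against 36.7% and 34.4% of all genes (71.1% in either direction). With the replicate number as a block, 27 were called, when 7291 of the 10186 genes were called in place of 6975, the additional members being *Stat2* (adjusted p = 0.0319 in place of 0.0537) and *Irgm1*. The members nearest to the threshold after *Stat2* were *Oas2* (log2 difference −0.86, adjusted p = 0.125) and *Herc6*, an ISG15 ligase (−0.72, adjusted p = 0.136).

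The members higher in neutrophils with PBS included *Cmpk2* and *Rsad2*. *Cmpk2* had 7.43, 6.56 and 2.86 CPM in macrophages, a log2 difference of 3.22 ± 0.29 (adjusted p = 1.46e-08), or 9.33-fold. *Rsad2* had 12.6, 19.1 and 10.0 CPM in macrophages, a log2 difference of 1.88. *Samd9l*, at 78.9 to 113 CPM in neutrophils and 20.3 to 20.8 CPM in macrophages, was 4.50-fold higher in neutrophils. *Sp100*, a component of nuclear bodies, had 144, 151 and 152 CPM in neutrophils and 53.7, 50.7 and 45.8 CPM in macrophages (log2 difference 1.56). The RNA sensor gene *Ddx58* was at 24.2, 26.3 and 23.7 CPM against 12, 8.65 and 7.52 CPM (1.39), and *Oas3* at 27.4, 27.2 and 26.2 CPM against 10.0, 6.86 and 6.80 CPM (1.76). *Oas3* shares 28.1% of its terminal words with other genes. *Cxcl10* was called with 5.35, 3.97 and 5.38 CPM in neutrophils. In macrophages it was at 0.857, 0.895 and 0 CPM, at or under the floor of 3 counts in each, so that no exact difference is given. *Oasl1* (1.72) and *Irf7* (0.50, adjusted p = 0.0245) were also higher in neutrophils, and *Irf7*, whose reads may not be told from those of *Phrf1*, lost its call with library totals without TMM (adjusted p = 0.0949), with quality weights (0.0977), without the filter on low counts (0.0540) and without PBS replicate 1 or 3 of neutrophils or 2 or 3 of macrophages, at up to 0.0911.

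The members lower in neutrophils with PBS were led by *Lgals3bp*, at 15.4, 11.9 and 10.0 CPM in neutrophils and 222, 222 and 230 CPM in macrophages (log2 difference −4.17 ± 0.19, 18.0-fold higher in macrophages). *Slfn5* was at 17.6, 17.1 and 22.2 CPM against 130, 112 and 90.6 CPM (−2.55). *Bst2*, which encodes tetherin, a membrane protein that holds budding virions on the cell, was at 33.4, 37.3 and 36.6 CPM against 191, 169 and 146 CPM (−2.23). For these 3 genes no neutrophil library came near a macrophage library. *Oas1a* was at 4.09, 4.89 and 3.59 CPM against 26.6, 24.8 and 19.0 CPM (−2.44), and 70.0% of its terminal words occur in *Oas1g*, a related gene nearby. *Usp18* (−2.26), *Xaf1* (−2.15), *Rtp4* (−1.36), *Ifit3* (−1.17), *Ifi27l2a* (−1.07), *Parp14* (−1.02), *Ifit1* (−0.89), *Ifi204* (−0.80), *Eif2ak2*, which encodes the kinase PKR (−0.79), *Trim30a* (−0.68), *Ifih1* (−0.67) and *Ifi35* (−0.44) were lower as well. Of these, *Ifit1* kept its call only without macrophage PBS replicate 3 (adjusted p up to 0.129) and *Ifih1* only without neutrophil PBS replicate 1 or macrophage PBS replicate 2 (up to 0.108). *Ifit3* lost its call without neutrophil PBS replicate 1 or 2 (up to 0.0916), *Ifi35* without neutrophil PBS replicate 2 or macrophage PBS replicate 1 (up to 0.110) and *Eif2ak2* without macrophage PBS replicate 1 (0.0555). DESeq2 did not call *Ifit1*, *Ifih1*, *Ifit3* or *Irf7*. Without the filter on low counts, 22 of 42 members and 8452 of 19934 genes were called in limma-voom. *Ifit1* (adjusted p = 0.0643) and *Ifih1* (0.0525) were not among them. *Ifit1* was also not called after thinning (0.0728). The members that encode sensors and OAS-family enzymes therefore lay on both sides, with *Ddx58* higher in neutrophils and *Ifih1* lower, and *Oas3* higher and *Oas1a* lower. *Isg15* was not called, except without macrophage PBS replicate 3, at 17.3, 18.9 and 18.3 CPM in neutrophils and 27.4, 26.6 and 13.6 CPM in macrophages (−0.27, 95% interval −0.78 to 0.23).

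**Figure D3:**
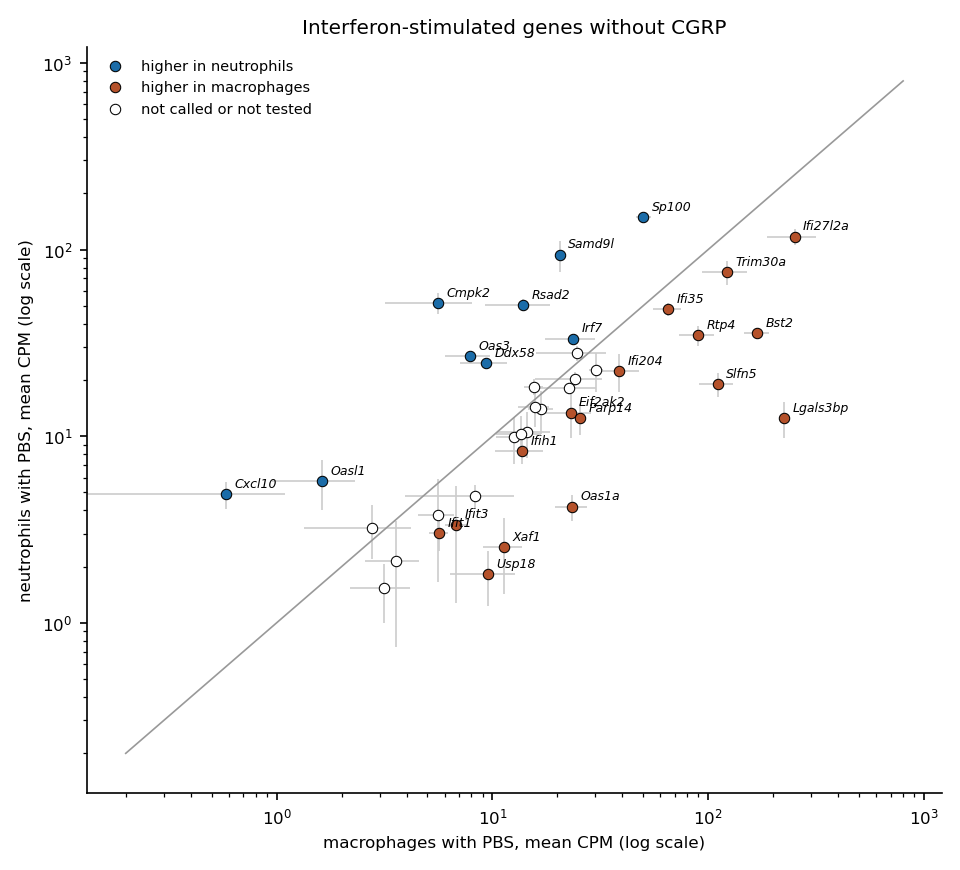
Mean level of the members with PBS in neutrophils (y axis) and macrophages (x axis), in TMM-scaled CPM on log scales, with bars of 1 SD over 3 libraries and the line of equal level. Filled points passed the test between cell types (9 above the line, 16 below), and *Mx2* and *Ifi44* are not drawn because their means are near 0.

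Of the members, 5 were too low to test in neutrophils (*Oas2*, *Ifit1*, *Mx1*, *Mx2* and *Ifi44*) and 7 in macrophages (*Oas2*, *Oasl1*, *Ifit2*, *Mx1*, *Mx2*, *Ifi44* and *Cxcl10*). The GTPase gene *Mx1* had at most 6 counts in a neutrophil library and between 5 and 15 in a macrophage library, *Mx2* at most 5 in any library, and *Ifi44* at most 2. The gene annotation lists *Mx2* as a polymorphic pseudogene and *Mx1* as protein-coding. *Oas2* in macrophages had 3.71, 4.48 and 2.51 CPM with PBS and 1.87, 1.84 and 1.00 CPM with CGRP, which do not overlap. *Oasl1* in macrophages had 1.43, 2.39 and 1.07 CPM with PBS and 0.312, 1.10 and 0 CPM with CGRP, at or near the floor.

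Beyond the members, 140 further genes of the interferon pathway were listed by role, and 139 were found by symbol. In neutrophils 94 were tested and 7 called, 2 higher and 5 lower with CGRP, when 2.53% of all genes were called. In macrophages 88 were tested and 8 called, 4 higher and 4 lower, a share near the 7.43% of all genes. Among the receptors, *Ifngr1*, the ligand-binding chain of the interferon-γ receptor, rose in macrophages, from 306, 329 and 338 CPM to 610, 609 and 651 CPM (log2 fold change 0.95 ± 0.12, adjusted p = 8.39e-05). In neutrophils it had 413, 405 and 409 CPM with PBS and 436, 424 and 405 CPM with CGRP (0.06, 95% interval −0.10 to 0.22). The effect differed between the cell types by 0.90 ± 0.13 (adjusted p = 2.35e-04), in each of 9 alternatives and without any 1 library. Its partner *Ifngr2* had log2 fold changes of 0.11 in neutrophils and 0.22 in macrophages, neither called. The type I receptor genes were not called. *Ifnar1* had log2 fold changes of 0.10 (95% interval −0.17 to 0.36) in neutrophils and −0.25 (−0.63 to 0.12) in macrophages, and *Ifnar2* of 0.12 (−0.14 to 0.37) and 0.41 (−0.01 to 0.83). *Il10rb*, a chain shared by the type III and interleukin-10 receptors, had 94.7, 94.1 and 101 CPM with PBS and 107, 110 and 121 CPM with CGRP in neutrophils (0.23, adjusted p = 0.318) and a value of −0.19 in macrophages (adjusted p = 0.438). *Ifnlr1*, the type III receptor chain, had 14.7 to 21.7 CPM in neutrophils with PBS and 1 count in all 6 macrophage libraries together. In neutrophils its log2 fold change with CGRP was −0.11 (95% interval −0.53 to 0.31).

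Of the kinases and transcription factors, *Irf8*, a regulator of monocyte and dendritic cell development, fell in neutrophils from 139, 112 and 147 CPM to 72.2, 70.1 and 78.6 CPM (log2 fold change −0.83 ± 0.12, adjusted p = 1.83e-04) and was called in all 10 alternatives and without any 1 library. In macrophages it had 250, 290 and 335 CPM with PBS and 231, 243 and 245 CPM with CGRP (−0.27, adjusted p = 0.288). *Irf9* had log2 fold changes of −0.32 (adjusted p = 0.364) and 0.01 (adjusted p = 0.986). No gene of this group was called in macrophages.

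Among the inhibitors, *Ptpn6*, which encodes the phosphatase SHP-1, fell in both cell types. It went from 635, 583 and 545 CPM to 465, 413 and 427 CPM in neutrophils (−0.42 ± 0.08, adjusted p = 0.00499) and from 256, 252 and 222 CPM to 123, 121 and 107 CPM in macrophages (−1.05 ± 0.13, adjusted p = 8.37e-05). The call in neutrophils was lost without PBS replicate 1 (adjusted p = 0.0825). The difference between the cell types was −0.62 ± 0.15 on the log2 scale, a deeper fall in macrophages (adjusted p = 0.0269). Of the genes upstream of interferon, *Trim25*, the ubiquitin ligase that activates RIG-I, rose in macrophages from 29.4, 18.5 and 24.3 CPM to 69.0, 64.4 and 76.6 CPM (1.55 ± 0.19, adjusted p = 5.82e-05). In neutrophils it rose from 24.9, 35.1 and 31.9 CPM to 46.9, 48.8 and 40.6 CPM (0.61 ± 0.15, adjusted p = 0.0343), a call kept only without CGRP replicate 3 when 1 library was left out (adjusted p up to 0.253), and lost in DESeq2, after thinning and in the single fit (up to 0.121). The difference between the cell types was 0.96 (adjusted p = 0.0373).

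**Figure D4:**
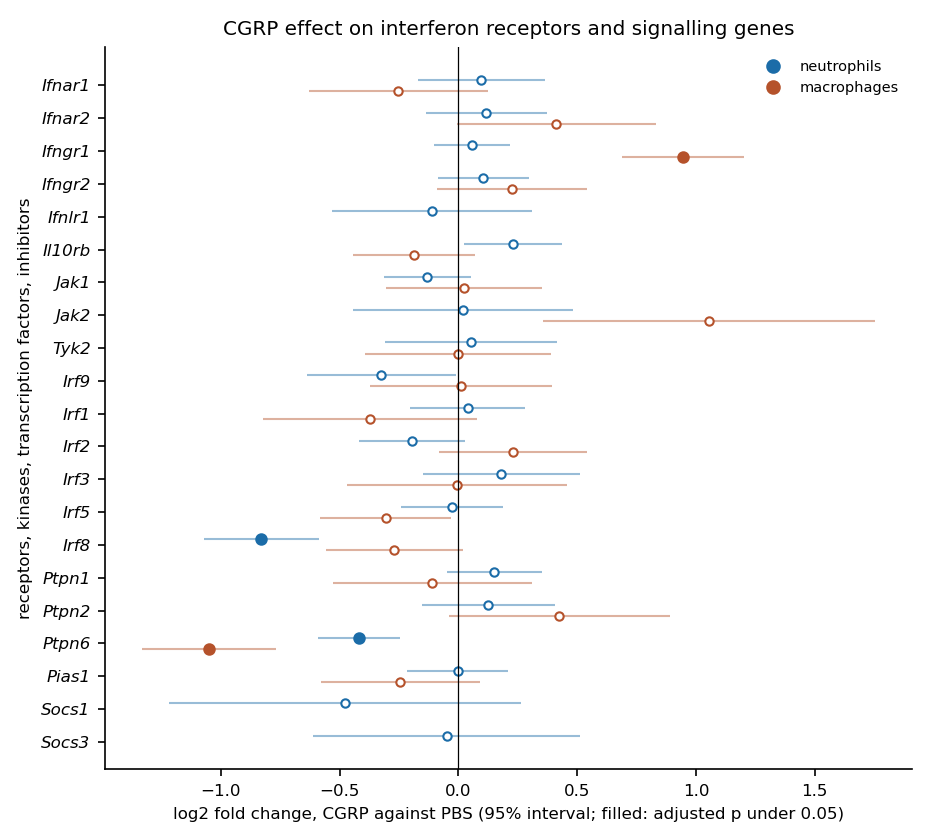
Log2 fold change of CGRP against PBS (x axis) for interferon receptors, receptor kinases, transcription factors and inhibitors (y axis) in neutrophils (blue) and macrophages (orange). Lines are 95% intervals and filled points have an adjusted p under 0.05: *Irf8* and *Ptpn6* in neutrophils and *Ifngr1* and *Ptpn6* in macrophages. Genes without a point in a cell type were not tested there.

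Of 90 further interferon-stimulated genes, 62 were tested in neutrophils. *Ifit1bl2* (log2 fold change −0.87) and the immunoproteasome subunits *Psmb9* (−0.43) and *Psmb8* (−0.34) fell, and *Ifitm2*, which restricts viral entry and shares 51.5% of its terminal words with other genes, rose (0.37). With 1 library left out, *Ifit1bl2* kept its call only without PBS replicate 3 (adjusted p up to 0.2), *Psmb9* without PBS replicate 3 or CGRP replicate 1 (up to 0.126), *Psmb8* without CGRP replicate 1 (up to 0.145) and *Ifitm2* without CGRP replicate 2 or 3 (up to 0.109). In the single fit over 12 libraries none of these 4 genes was called (adjusted p up to 0.115), and with library totals without TMM *Ifitm2* alone of them was, while *Psmb9* and *Ifit1bl2* also lost their calls after thinning. In this list 67.7% of the genes tested were below 0, against 49.8% of all genes, with a median of −0.11. With library totals without TMM 37 of the 62 were below 0, with a median of −0.06. In macrophages 59 were tested. *Ifi207*, of the HIN-200 family, fell from 112, 86.2 and 98.1 CPM to 50.9, 53.7 and 39.6 CPM (−1.02 ± 0.17, adjusted p = 9.48e-04), in all 10 alternatives and without any 1 library. In neutrophils *Ifi207* had 19.2, 18.9 and 12.9 CPM with PBS and 21.4, 17.5 and 15.7 CPM with CGRP, and the effect differed between the cell types by −1.13 (adjusted p = 0.0250). *Mndal* and *Slfn2* (−0.55, adjusted p = 0.0451) also fell, while *Cd274*, which encodes the checkpoint ligand PD-L1, rose from 7.71, 8.65 and 10.0 CPM to 14.4, 18.4 and 19.5 CPM (0.97, adjusted p = 0.0281) and the chemokine gene *Ccl5* rose (0.60, adjusted p = 0.0473). With 1 library left out, *Slfn2* (adjusted p up to 0.220) and *Cd274* (up to 0.155) kept their calls only without PBS replicate 3 or CGRP replicate 1, and *Ccl5* (up to 0.251) only without PBS replicate 3. *Cd274* and *Ccl5* were also not called with library totals without TMM or after thinning (*Cd274* up to 0.0658), and *Ccl5* not in DESeq2 or with either other filter (up to 0.103). In this list 57.6% of the genes tested were below 0 in macrophages, against 49.3% of all genes, with a median of −0.05. With library totals without TMM 38 of the 59 were below 0, with a median of −0.10. The paralogues *Ifit3b* and *Oas1g* were low, with at most 5.67 and 4.06 CPM in any library.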

How the data were processed

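The deposited tables, 1 per cell type, hold counts per gene that were not normalized. Per the study's methods and the submitters' processing notes, the authors used nf-core's RNA-seq workflow with collapsing of unique molecular identifiers, STAR for alignment (GRCm38) and featureCounts for counting. The annotation release and strand setting of the counting are not given in the sources used here, so reads of genes that overlap on opposite strands may not be told apart. Columns were matched to samples by name.

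Genes were kept by filterByExpr, scaled by TMM and tested by limma-voom (two-sided, Benjamini–Hochberg adjustment over all genes tested, threshold 0.05), on the 6 libraries of a cell type, on the 6 PBS libraries, and on 12 libraries for the interaction. The comparisons shared libraries, and no relation between them was tested. Alternatives were other tests (DESeq2 and edgeR's quasi-likelihood test), other scalings (DESeq2 size factors, or library totals without TMM), other filters (none, or at least 10 counts in each library), voomWithQualityWeights, a replicate block, thinning to the smallest library, a single fit over 12 libraries and leaving out each library. In the PBS comparison, libraries with the same number had weakly positive correlations of their deviations from group means (r from 0.102 to 0.210), and no label says that they share a mouse.

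Members and gene lists were chosen with earlier results of these data known. The text names, for each comparison, every called member and the next 3 by adjusted p, members too low to test, pathway genes called with CGRP, and interferon ligands, receptors, *Irf9*, *Ifit3b* and *Oas1g*. A further gene under this rule is not reported here. Other genes are named to complete a role or to check a named one. Positions came from GENCODE M21, which held 52489 of the gene identifiers. The steps were tested on simulated data. Software was R 4.3.3, limma 3.58.1, edgeR 4.0.16, DESeq2 1.42.0, Python 3.11.15, pandas 2.3.3 and matplotlib 3.10.9.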

Additional observations from a re-analysis of the deposited data

Results flagged for a closer look

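The CGRP effect differed between the cell types by the interaction test for 2 members and for 4 further genes of the pathway. All values are the log2 effect in macrophages minus that in neutrophils. *Ifit3* (−2.49, adjusted p = 0.0381) and *Usp18* (−2.25, adjusted p = 0.0478) had lower values in macrophages. *Ifi207* (−1.13, adjusted p = 0.0250) and *Ptpn6* (−0.62, adjusted p = 0.0269) also had lower values there. *Ifngr1* (0.90, adjusted p = 2.35e-04) and *Trim25* (0.96, adjusted p = 0.0373) had higher values in macrophages. With each of the 12 libraries left out in turn, *Ifngr1* kept its call in 12 analyses, *Ifi207* in 7, *Ptpn6* in 6, *Ifit3* and *Trim25* in 4 each and *Usp18* in 1. *Ifi207* lost it without neutrophil PBS replicate 3, CGRP replicate 1 or CGRP replicate 2 or macrophage PBS replicate 1 or CGRP replicate 3 (adjusted p up to 0.114). *Ptpn6* lost it without neutrophil PBS replicate 2 or 3 or CGRP replicate 1 or macrophage PBS replicate 1 or CGRP replicate 2 or 3 (up to 0.0896). *Trim25* kept it without neutrophil PBS replicate 1, macrophage PBS replicate 1 or 3 or macrophage CGRP replicate 1, and reached 0.148 otherwise. Among the other analyses, *Ifi207* was not called without the filter on low counts, nor *Trim25* without that filter, with library totals without TMM or after thinning. No group had enough libraries for a check of single outlying libraries.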

How the results depend on the processing

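No called direction reversed. In neutrophils *Cmpk2* was the 1 member called in every alternative, while the genes called went from 248 to 137 in a single fit over 12 libraries and to between 138 (without PBS replicate 1 or 2) and 234 without 1 library. In macrophages 3 members became 1 with at least 10 counts in every library, where *Ifit3* and *Ifi203* were not tested. There were 8 with quality weights (1 of them, *Lgals3bp*, higher), 7 with the replicate block, 5 in the single fit and 4 after thinning, with *Zbp1* added. Leaving out 1 library gave between 0 (without CGRP replicate 3) and 6 (without PBS replicate 3 or CGRP replicate 1). The genes called went from 698 to 1406 with quality weights, 1050 in the single fit, 529 after thinning and between 347 (without PBS replicate 1) and 765 without 1 library. In the interaction, 2 members became 1 with library totals, and 0 without a filter, with at least 10 counts in every library (where *Ifit3* and *Usp18* were not tested) and after thinning, in limma-voom, with 5, 1 and 7 members at an unadjusted p under 0.05. Without 1 library between 0 and 1 were called, and edgeR and DESeq2 each called the same 2. The genes called went from 252 to 520 with quality weights and to between 149 (without macrophage PBS replicate 1) and 328 without 1 library. Of the results for named members, 378 kept their side of the threshold in the alternatives, 15 lost a call and 11 gained one, and 236, 45 and 7 did so without 1 library. In the PBS comparison between 21 and 28 members were called without 1 library, when between 6547 and 7265 of the 10449 to 10517 genes tested were. The causes were not tested.

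Deviations of same-numbered libraries from their group means had correlations of both signs in neutrophils (r from −0.0141 to 0.141) and macrophages (−0.185 to 0.282). A differently numbered macrophage pair reached 0.395. These values do not show whether same-numbered libraries share an origin, so the block there pairs by number only. With it 289 genes and 1 member were called in neutrophils, 1007 genes and 7 members in macrophages (*Ifit3*, *Samd9l*, *Ifi203*, *Ifi204*, *Slfn5*, *Usp18* and *Trim30a*) and 303 genes and 2 members in the interaction. At 2002559 to 3631989 counts per library, 5 members in neutrophils and 7 in macrophages had too few counts to pass the filter, and called members such as *Ifit3* rested on as few as 3 counts in a library.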
